A study of Homo sapiens with 16 samples.

Results

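The chemokine ligands are 10 genes for small secreted or membrane-bound proteins that attract leukocytes: CXCL1, CXCL2, CXCL3, CXCL8, CXCL9, CXCL10, CXCL16, CCL2, CCL5 and CX3CL1. They were taken by their symbol from a table of 57500 genes, each symbol matched 1 row, and all 10 were among the 15566 genes that passed the filter on low counts. The RNA came from MDA-MB-231, an established human triple-negative breast cancer line, sequenced after poly(A) selection in 16 libraries, with 4 libraries in each of 4 groups. The groups were cells with a hairpin against AKAP2 (shAKAP2) given doxycycline, shAKAP2 cells without it, cells with a scrambled hairpin (shScramble) given doxycycline, and shScramble cells without it. In both lines doxycycline switches the hairpin on, so the shScramble cells with doxycycline share the drug and the induced promoter with the shAKAP2 cells and lack the AKAP2-directed hairpin. Within a group the labels speak of biological replicates and not of separate cultures, so a p-value here reflects library-to-library spread. The sources used here give no doxycycline dose, no length of treatment and no hairpin sequence, and do not say whether each line is 1 clone. AKAP2 encodes an A-kinase anchoring protein, which tethers protein kinase A at defined sites in the cell.

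CXC chemokines with the motif glutamate-leucine-arginine before the first cysteines (ELR CXC chemokines, here CXCL1, CXCL2, CXCL3 and CXCL8) attract neutrophils through the receptors CXCR1 and CXCR2, and in tumour cells their genes are classical targets of NF-kB. CXCL9 and CXCL10 lack that motif, attract activated T cells through CXCR3 and are induced by interferons. CCL2 recruits monocytes, CCL5 recruits T cells and monocytes, and CXCL16 and CX3CL1 are made as membrane-anchored proteins that ADAM proteases can shed.

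Total counts ran between 24482997 and 37472525 a library, and levels are given as CPM, counts scaled to a common library size. AKAP2 itself averaged 0.0403 ± 0.0583 CPM in shAKAP2 cells with doxycycline and 1.42 ± 0.0272 CPM without it (SD, n = 4 each), a log2 fold change of -5.06 (SE 0.577, adjusted p = 1.25e-06 by edgeR's quasi-likelihood test). In the shScramble line it averaged 1.76 ± 0.685 CPM with doxycycline and 1.17 ± 0.24 CPM without it. The low counts of AKAP2 are uncertain in one respect: the readthrough gene PALM2-AKAP2 lies over the same region, and it had 3, 1, 1 and 0 counts in shAKAP2 libraries with doxycycline and 10, 5, 16 and 8 without. The line's markers VIM, CD44 and CAV1 were abundant and the oestrogen receptor gene ESR1 had at most 1 count in a library. Other genes of the same luminal epithelial list were expressed. The group means ran from 170 to 216 CPM for KRT19, 13.2 to 20.5 for EPCAM and 11.3 to 18.9 for GATA3. The replicate 1 libraries of both shScramble groups stood apart: their root mean square deviation from their group mean over all tested genes was 0.336 on the log2 scale with doxycycline and 0.318 without it, against 0.177 to 0.231 in the other 14 libraries. The labels do not say whether these libraries were prepared differently, and whether they carry the right label was not tested. Values of the chemokine ligands that turn on them are also given without them, while the counts over other gene lists include them.

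Per exonic length, CXCL10 and CXCL8 were the most abundant members in the shAKAP2 line. In shAKAP2 cells with doxycycline, the CPM per kilobase of exon (RPKM) were 6.96 ± 1.69 for CXCL10, 4.66 ± 0.794 for CXCL8 and 1.41 ± 0.193 for CCL5 (SD, n = 4 each), and the other 7 members lay between 0.256 for CXCL3 and 0.961 for CX3CL1. CXCL10 and CXCL8 differed there by less than their summed SDs, as did each pair of neighbours below CCL5. In shAKAP2 cells without doxycycline the same 3 genes led, with 8.97 ± 0.986 RPKM for CXCL10, 7.76 ± 0.745 for CXCL8 and 2.14 ± 0.495 for CCL5. The neighbours that differed there by more than their summed SDs were CXCL8 and CCL5, and CXCL9 at 0.938 ± 0.144 and CCL2 at 0.466 ± 0.19 RPKM. CXCL8 led in the shScramble line, with 17.7 ± 14.6 RPKM with doxycycline and 17.2 ± 21.1 without it. CXCL10 was second in shScramble cells with doxycycline, at 6.87 ± 4.25 RPKM, and sixth without it, at 0.962 ± 0.638, where CXCL9 came last at 0.0433 ± 0.0694. In both shScramble groups every pair of neighbours in the order differed by less than their summed SDs. Without replicate 1, CXCL8 still came first in the shScramble line, at 10.4 ± 1.15 RPKM with doxycycline and 6.67 ± 2.51 without it (n = 3 each). CXCL10 kept the second place with doxycycline, at 8.85 ± 1.9 RPKM, and the sixth without it, at 0.643 ± 0.0408. CXCL8 and CXCL10 again differed by less than their summed SDs with doxycycline, while CXCL10 and the next gene, CXCL1 at 2.98 ± 1.06 RPKM, now differed by more, as did CXCL16 and CXCL3. Without doxycycline CXCL8 and CXCL1 differed by more, as did CCL2 and CXCL10.

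**Figure D1:**
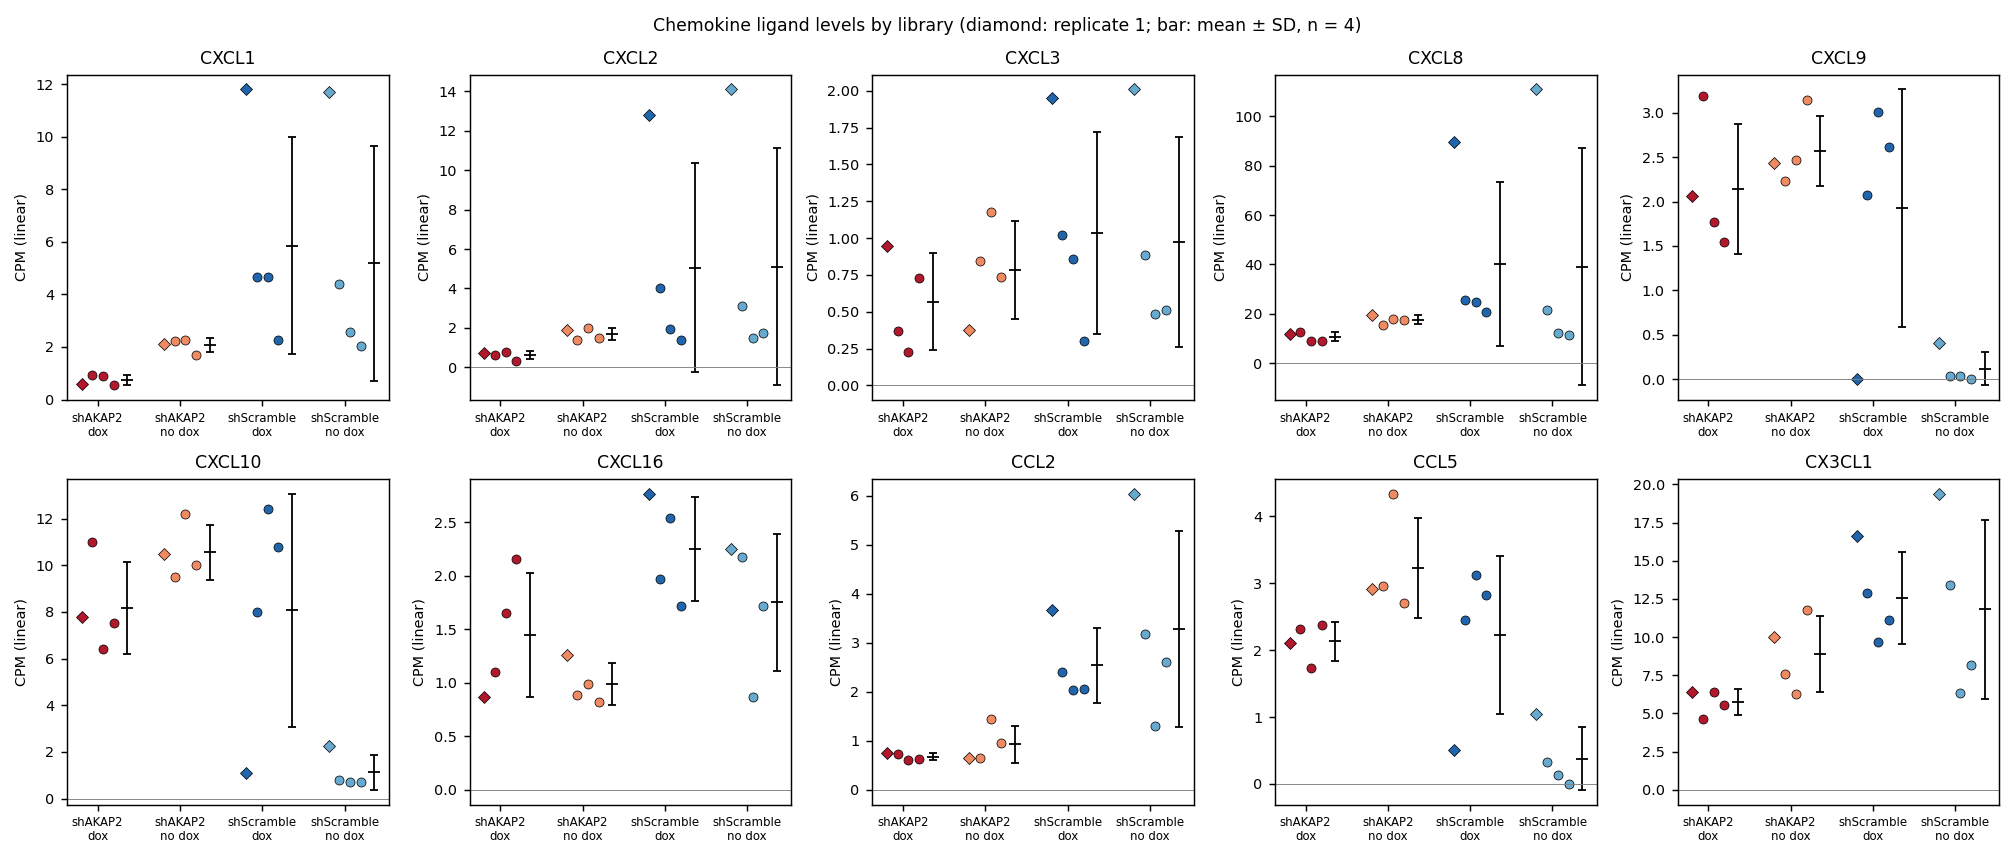
Level of each chemokine ligand in CPM (linear axis, each panel with its own range) in the 16 libraries. Points are libraries, diamonds are replicate 1, and the bar gives the mean ± SD of 4 libraries. CXCL8 reaches 89.8 and 111 CPM in the shScramble replicate 1 libraries, and CXCL9 stays at or under 0.403 CPM in shScramble cells without doxycycline.

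In GENCODE release 29 (GRCh38) 6 members lie on chromosome 4: CXCL8 at chr4:73740506-73743716 and CXCL1 at chr4:73869393-73871242 on the plus strand, and CXCL3 at chr4:74036589-74038807, CXCL2 at chr4:74097035-74099293, CXCL9 at chr4:76001275-76007488 and CXCL10 at chr4:76021117-76023497 on the minus strand. CCL2 at chr17:34255218-34257203, CCL5 at chr17:35871491-35880793 and CXCL16 at chr17:4733526-4739922 lie on chromosome 17, and CX3CL1 at chr16:57372458-57385048 on chromosome 16. The proximal promoters of 4 of them are shown because the ELR and the interferon-inducible members differ in the words they hold. They are the 250 bases before the RefSeq transcription start (GRCh38.p14), at chr4:73869143-73869392 for CXCL1, chr4:73740319-73740568 for CXCL8, chr4:76007510-76007759 for CXCL9 and chr4:76023498-76023747 for CXCL10. Capitals mark matches on either strand to GGAATTTCC, to TTTC repeated after any 2 bases (the core of an interferon-stimulated response element) or to the NF-kB consensus, which overlaps GGAATTTCC where both match.
CXCL1: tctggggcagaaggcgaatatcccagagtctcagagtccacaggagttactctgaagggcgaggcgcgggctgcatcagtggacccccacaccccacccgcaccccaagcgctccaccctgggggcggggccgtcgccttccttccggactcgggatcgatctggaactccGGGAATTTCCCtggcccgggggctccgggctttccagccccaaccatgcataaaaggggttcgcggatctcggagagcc
CXCL8: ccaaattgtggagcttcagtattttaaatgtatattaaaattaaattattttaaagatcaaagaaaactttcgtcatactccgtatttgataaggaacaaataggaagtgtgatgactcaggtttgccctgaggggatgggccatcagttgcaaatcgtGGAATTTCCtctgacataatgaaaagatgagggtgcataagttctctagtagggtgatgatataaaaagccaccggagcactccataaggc
CXCL9: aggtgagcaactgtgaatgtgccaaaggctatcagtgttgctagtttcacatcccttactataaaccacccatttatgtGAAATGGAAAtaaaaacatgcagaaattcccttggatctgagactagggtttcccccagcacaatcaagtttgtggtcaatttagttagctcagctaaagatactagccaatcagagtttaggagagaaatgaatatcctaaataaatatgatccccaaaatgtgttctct
CXCL10: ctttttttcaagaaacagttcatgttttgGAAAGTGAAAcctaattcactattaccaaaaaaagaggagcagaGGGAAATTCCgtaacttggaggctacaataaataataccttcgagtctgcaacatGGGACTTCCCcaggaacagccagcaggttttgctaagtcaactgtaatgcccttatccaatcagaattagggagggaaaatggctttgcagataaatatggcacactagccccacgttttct

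GGAATTTCC was found 1 time in each of the 4 ELR promoters and in that of CXCL10, and not in that of CXCL9. Of 35116 RefSeq promoters of the same length, 0.413% hold it. Its first base lies at -78 from the start site in CXCL1 and CXCL3, -77 in CXCL2, -91 in CXCL8 and -176 in CXCL10. The NF-kB consensus was matched in CXCL1, CXCL2, CXCL3 and CXCL10 and not in CXCL8 or CXCL9, against 9.96% of all promoters with a match. In CXCL1, CXCL2 and CXCL3 it matched over the GGAATTTCC word at starts 1 base apart, which are overlapping readings of a single stretch, while CXCL10 held 2 separate matches, at -177 and -122. The repeated TTTC was found in CXCL9 at -171 and in CXCL10 at -221, in none of the 4 ELR promoters, and in 3.02% of all promoters. CXCL16, CCL2, CCL5 and CX3CL1 were not matched in the promoter table. These matches describe the letters in the window and are not evidence of binding.

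The 3' untranslated regions (3' UTRs, GENCODE release 29) separated the members in another way. The AU-rich word TATTTAT, known from short-lived cytokine mRNAs, occurred 4 times in the 3' UTR of CXCL1, 8 times in CXCL2, 3 times in CXCL3, 4 times in CXCL8 and 1 time in CX3CL1. The other 5 members held none, and 35.9% of the 12803 tested genes with a 3' UTR held at least 1. The shorter word ATTTA, which 74.1% of those genes hold, occurred 5, 10, 7 and 9 times in CXCL1, CXCL2, CXCL3 and CXCL8, 6 times in CXCL9, and at most 2 times in any other member.

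CXCL1, CXCL2 and CXCL8 were lower in every shAKAP2 library with doxycycline than in any shAKAP2 library without it, although none of the 3 passed the test that shares its spread over all 16 libraries. CXCL8, the main neutrophil attractant of the family, had 11.8, 12.5, 8.98 and 9.11 CPM in shAKAP2 cells with doxycycline and 19.7, 15.6, 18 and 17.3 CPM without it. CXCL1, a CXCR2 ligand, had 0.576, 0.916, 0.902 and 0.549 CPM with doxycycline and 2.1, 2.23, 2.25 and 1.69 CPM without it. The 2 groups of the line did not overlap for either gene. CXCL2, a close paralog of CXCL1, had 0.741, 0.623, 0.789 and 0.329 CPM in shAKAP2 cells with doxycycline and 1.9, 1.38, 1.98 and 1.47 CPM without it, again with no overlap. The CXCL1 values rest on 14 to 25 counts a library with doxycycline and 58 to 62 without it. Those of CXCL2 rest on 9 to 21 counts with it and 36 to 56 without it. CXCL3, the third paralog, did overlap, with 0.226 to 0.947 CPM with doxycycline and 0.373 to 1.18 CPM without it. The log2 fold changes with doxycycline in the shAKAP2 line were -1.48 for CXCL1 (SE 0.605, adjusted p = 0.0831), -1.44 for CXCL2 (SE 0.891, adjusted p = 0.26), -0.74 for CXCL8 (SE 0.726, adjusted p = 0.5) and -0.46 for CXCL3 (SE 0.586, adjusted p = 0.604). CXCL1, CXCL2 and CXCL3 share 4.81%, 12.5% and 6.01% of their 50-base words with each other, so reads could be divided among them, and their separate counts are uncertain.

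Over the 10 members, edgeR's quasi-likelihood test called 0 for doxycycline in the shAKAP2 line, where 28.3% of all tested genes were called. At an unadjusted p under 0.05 there were 2 (CXCL1 and CX3CL1), limma-voom called 0, and the DESeq2 test called 1 of the 9 to which it gave an adjusted p. DESeq2 gave CXCL8 none in any comparison. The log2 fold change was negative in 9 of 10 members, with a median of -0.53 over the members, -1.09 over the 4 ELR genes and -0.32 over CXCL9 and CXCL10, against 0.002 over all tested genes. The 2 groups did not overlap for 4 members (CXCL1, CXCL2, CXCL8 and CCL5), or 40.0% of them, close to the 36.5% of all tested genes.

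The spread behind that test includes the shScramble replicate 1 libraries. CXCL8 had 89.8, 25.4, 24.8 and 20.6 CPM in shScramble cells with doxycycline and 111, 21.7, 12.2 and 11.5 CPM without it. Replicate 1 held 3.8 times the mean of the other 3 libraries with doxycycline and 7.3 times without it. For CXCL1 the shScramble values were 11.8, 4.65, 4.66 and 2.27 CPM with doxycycline and 11.7, 4.39, 2.56 and 2.05 CPM without it, and for CXCL2 they were 12.8, 4.04, 1.96 and 1.39 CPM with doxycycline and 14.1, 3.1, 1.49 and 1.76 CPM without it. CXCL3 was lower, with 1.95, 1.02, 0.861 and 0.301 CPM in shScramble cells with doxycycline and 2.01, 0.885, 0.484 and 0.513 CPM without it. For each of the 4 genes the 2 replicate 1 libraries were the highest of the 16. The 2 shScramble groups overlapped for every ELR gene. No ELR gene passed edgeR's test for doxycycline in that line, with 0 of 4 at an unadjusted p under 0.05, where 1.08% of all tested genes passed.

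When both shScramble replicate 1 libraries were left out of the same fit, 4 members were called lower with doxycycline in the shAKAP2 line, where 39.4% of all tested genes were called. They were CXCL1 (log2 -1.48, SE 0.302, adjusted p = 0.000165), CXCL2 (log2 -1.44, SE 0.356, adjusted p = 0.00139), CXCL8 (log2 -0.74, SE 0.171, adjusted p = 0.00198) and CX3CL1 (log2 -0.65, SE 0.221, adjusted p = 0.027). The fold changes were those of the fit to 16 libraries to within 0.01, and the standard errors were smaller. With the 8 shAKAP2 libraries alone, 6 members were called lower, among 43.5% of all tested genes: CXCL8 (adjusted p = 4.66e-06), CXCL1 (adjusted p = 0.00042), CXCL2 (adjusted p = 0.00201), CX3CL1 (adjusted p = 0.00332), CCL5 (adjusted p = 0.0344) and CXCL10 (adjusted p = 0.0386). Leaving out each of those 8 libraries in turn, a check added after seeing the data, gave 4 to 6 called members, with CXCL1, CXCL2, CXCL8 and CX3CL1 called each time.

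**Figure D2:**
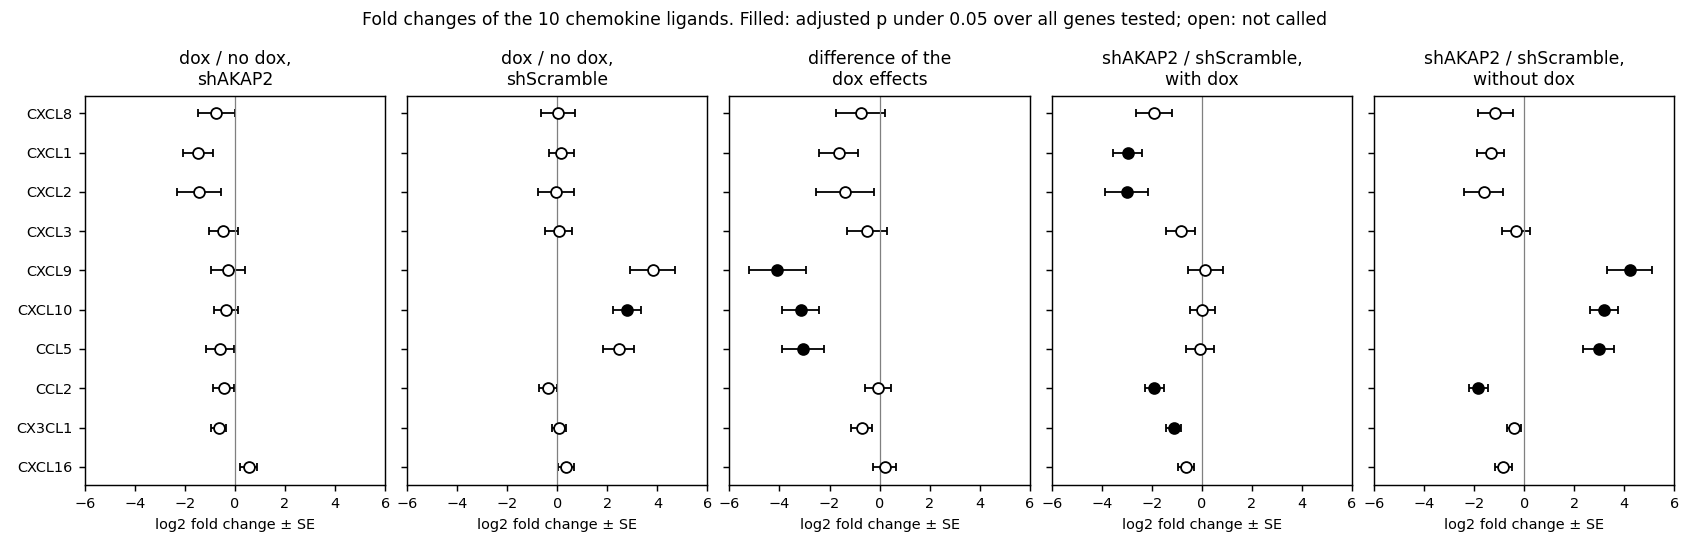
Log2 fold change ± SE of the 10 chemokine ligands in 5 comparisons, from the fit to all 16 libraries. Filled points have an adjusted p under 0.05 over all genes tested, open points do not. CXCL9, CXCL10 and CCL5 lie apart from the ELR genes in the shScramble doxycycline effect, the difference of the effects and the comparison of the lines without doxycycline.

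CXCL9, CXCL10 and CCL5 followed a different pattern: they were low in shScramble cells without doxycycline and expressed in the 3 other groups, except in the shScramble replicate 1 library with doxycycline. CXCL10 had 7.78, 11, 6.39 and 7.54 CPM in shAKAP2 cells with doxycycline and 10.5, 9.49, 12.2 and 10 CPM without it. In the shScramble line CXCL10 had 1.09, 7.98, 12.4 and 10.8 CPM with doxycycline and 2.25, 0.812, 0.725 and 0.732 CPM without it. Replicate 1 with doxycycline thus lay among the libraries without it, and the other 3 lay within or just above the range of the shAKAP2 libraries. CXCL9 had 2.06, 3.19, 1.77 and 1.54 CPM in shAKAP2 cells with doxycycline and 2.44, 2.23, 2.47 and 3.14 CPM without it. In the shScramble line CXCL9 had 0, 2.07, 3.01 and 2.62 CPM with doxycycline and 0.403, 0.0369, 0.0345 and 0 CPM without it. The zero with doxycycline is again replicate 1. CCL5, which viral and interferon responses also induce, had 2.1, 2.31, 1.73 and 2.38 CPM in shAKAP2 cells with doxycycline and 2.92, 2.96, 4.34 and 2.7 CPM without it. In shScramble cells it had 0.507, 2.45, 3.13 and 2.82 CPM with doxycycline and 1.05, 0.332, 0.138 and 0 CPM without it. The shAKAP2 groups did not overlap for CCL5, and the shScramble groups overlapped through replicate 1 alone.

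Of the 10 members, CXCL10 alone was called for doxycycline in the shScramble line, where 1.08% of all tested genes were called. It was higher, with a log2 fold change of 2.79 (SE 0.559, adjusted p = 0.0257), while CXCL9 at 3.81 (SE 0.908, adjusted p = 0.0635) and CCL5 at 2.45 (SE 0.628, adjusted p = 0.0857) did not pass. The call of CXCL10 was lost when any one of the 6 shScramble libraries other than the replicate 1 pair was left out, with adjusted p between 0.0639 and 0.0976. Without both replicate 1 libraries all 3 genes were called higher, among 6.36% of all tested genes, with adjusted p = 5.41e-10 for CXCL9, 8.04e-14 for CXCL10 and 5.95e-08 for CCL5. The remaining libraries held 234 CXCL9 counts with doxycycline and 2 without it, a depth-scaled ratio of 107 (95% exact interval 29.2 to 885). For CXCL10 there were 948 and 63 counts with and without doxycycline, a ratio of 13.7 (10.6 to 18.0), and for CCL5 255 and 13 counts, a ratio of 17.9 (10.3 to 34.0). These intervals cover counting error and not the spread between libraries. CCL5 shares 15.2% of its 50-base words with other annotated genes, so its counts are uncertain to that extent.

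The effect of doxycycline on these 3 genes differed between the lines. The interaction term, the shAKAP2 effect minus the shScramble effect, was -4.08 for CXCL9 (SE 1.15, adjusted p = 0.0224), -3.15 for CXCL10 (SE 0.737, adjusted p = 0.00872) and -3.05 for CCL5 (SE 0.832, adjusted p = 0.0173) on the log2 scale. These were the 3 members called, among 18.0% of all tested genes, and each stayed called when any 1 of the 16 libraries was left out. With no filter on low counts CXCL9 and CCL5 lost the call (adjusted p = 0.075 and 0.0724), and under limma-voom CXCL9 and CXCL10 did (adjusted p = 0.266 and 0.0695). Within the shAKAP2 line their log2 fold changes for doxycycline were -0.27 for CXCL9, -0.36 for CXCL10 and -0.60 for CCL5, and within the shScramble line 3.81, 2.79 and 2.45 for the same genes. The ELR genes had interaction terms of -1.63 for CXCL1, -1.39 for CXCL2, -0.76 for CXCL8 and -0.51 for CXCL3, with adjusted p between 0.18 and 0.731. Without both replicate 1 libraries 7 members had a negative interaction past the threshold, among 30.6% of all tested genes, the added 4 being CXCL1 (adjusted p = 0.00102), CXCL2 (adjusted p = 0.0117), CXCL8 (adjusted p = 0.000427) and CX3CL1 (adjusted p = 0.0401). Leaving out shScramble replicate 1 without doxycycline, a library of that pair, gave the same number, 7. Of the 16 fits that left out 1 library, CXCL1, CXCL2, CXCL8 and CX3CL1 were each called in 1. Over those fits 2249 to 3622 of all genes were called.

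Between the lines, CXCL1 and CXCL2 passed the test with doxycycline, and CXCL9 and CXCL10 passed it without. With doxycycline, CXCL1 was lower in shAKAP2 than in shScramble cells (log2 -2.97, SE 0.591, adjusted p = 0.000882), as was CXCL2 (log2 -3.01, SE 0.865, adjusted p = 0.0128), and all shAKAP2 libraries lay below all shScramble libraries for both genes. CXCL8 did not overlap either, but did not pass (log2 -1.92, SE 0.728, adjusted p = 0.0522). CXCL2 lost its call without the shScramble replicate 1 library with doxycycline (adjusted p = 0.059) and under limma-voom (adjusted p = 0.132), while without both replicate 1 libraries CXCL1, CXCL2 and CXCL8 all passed (adjusted p = 9.89e-08, 3.73e-05 and 3.73e-05). CXCL9, CXCL10 and CCL5 had log2 differences of 0.14 (SE 0.692), 0.02 (SE 0.484) and -0.07 (SE 0.551) there, with adjusted p between 0.896 and 0.986. In all, 4 members were called lower in shAKAP2 cells with doxycycline, where 40.2% of all tested genes were called in either direction.

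Without doxycycline, CXCL9 (log2 4.22, SE 0.903, adjusted p = 0.00541), CXCL10 (log2 3.17, SE 0.56, adjusted p = 0.00194) and CCL5 (log2 2.98, SE 0.626, adjusted p = 0.00417) were higher in shAKAP2 than in shScramble cells. The lowest shAKAP2 library exceeded the highest shScramble library for each of them. CXCL9 lost its call under limma-voom (adjusted p = 0.0851). The 4 ELR genes ran between -1.62 for CXCL2 and -0.34 for CXCL3 on the log2 scale, and none passed (smallest adjusted p 0.0907, for CXCL1; 1 of the 4, CXCL1, at an unadjusted p under 0.05). Without both replicate 1 libraries their log2 differences were -0.54 for CXCL1, -0.32 for CXCL2, 0.32 for CXCL3 and 0.22 for CXCL8, so the last 2 changed direction, and none passed (adjusted p between 0.172 and 0.722). CXCL9, CXCL10 and CCL5 stayed higher in that fit, with log2 differences of 6.51, 3.80 and 4.33. Together with CCL2 this made 4 called members of 10, where 18.0% of all tested genes were called. AKAP2 itself differed by 0.27 between the lines without doxycycline (SE 0.374, adjusted p = 0.667), which did not pass.

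The ELR genes and the CXCR3 ligands were also set against each other within a library. The summed level of CXCL1, CXCL2, CXCL3 and CXCL8 averaged 12.5 ± 1.97 CPM in shAKAP2 cells with doxycycline, 22.2 ± 1.88 CPM in shAKAP2 cells without it, 52.1 ± 43.1 CPM in shScramble cells with it and 50.3 ± 59.2 CPM in shScramble cells without it (SD, n = 4 each). Without the replicate 1 libraries the shScramble averages were 30.7 ± 5.46 CPM with doxycycline and 20.9 ± 7.98 CPM without it (n = 3 each). CXCL9 and CXCL10 together averaged 10.3 ± 2.69 CPM in shAKAP2 cells with doxycycline, 13.1 ± 1.21 CPM in shAKAP2 cells without it, 10 ± 6.34 CPM in shScramble cells with it and 1.25 ± 0.94 CPM in shScramble cells without it. Without replicate 1 the shScramble averages of this sum were 13 ± 2.71 CPM with doxycycline and 0.78 ± 0.0607 CPM without it (n = 3 each). The ratio of the CXCL9 and CXCL10 sum to the ELR sum was 0.699 to 0.99 in shAKAP2 libraries with doxycycline, 0.537 to 0.626 in shAKAP2 libraries without it, and 0.0192 to 0.0462 in shScramble libraries without it. In shScramble libraries with doxycycline it was 0.00937 in replicate 1 and 0.286 to 0.547 in the other 3. The ratios of the shAKAP2 groups did not overlap, nor did those of the shScramble groups once replicate 1 was set aside. The highest ratio in shScramble cells with doxycycline lay within the range of shAKAP2 cells without it. The ELR genes made up 38.0 ± 2.6% of the 10 members' summed CPM in shAKAP2 cells with doxycycline, 45.0 ± 2.14% without it, 57.6 ± 17.1% in shScramble cells with it and 65.1 ± 11.6% without it. Without replicate 1 the shScramble shares were 49.3 ± 5.02% with doxycycline and 59.6 ± 4.8% without it (n = 3 each).

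**Figure D3:**
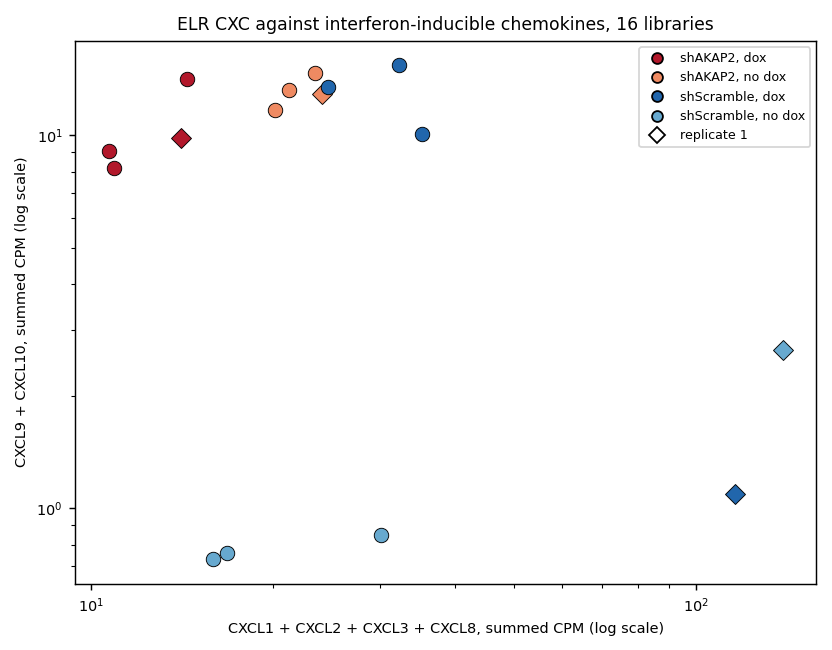
Summed CPM of CXCL9 and CXCL10 (y axis) against summed CPM of CXCL1, CXCL2, CXCL3 and CXCL8 (x axis), both on log scales, 1 point a library, diamonds for replicate 1. The shScramble libraries without doxycycline lie at 0.732 to 2.66 CPM on the y axis, together with the shScramble replicate 1 library with doxycycline at 1.09 CPM, and the other 11 libraries lie at 8.16 CPM or more.

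Some leukocyte genes moved with CXCL9, CXCL10 and CCL5, and others of the same list did not. CD53, a tetraspanin of leukocytes, had 23, 20, 29 and 17 counts in shAKAP2 libraries with doxycycline and 36, 25, 26 and 23 without it. In the shScramble line CD53 had 1, 34, 42 and 32 counts with doxycycline and 0, 3, 0 and 2 without it, so its low libraries were those in which CXCL10 was low. PTPRC, which encodes the leukocyte antigen CD45, had 20, 48, 17 and 13 counts in shAKAP2 libraries with doxycycline, 43, 27, 58 and 47 without it, 10, 77, 41 and 50 in shScramble libraries with it and 15, 2, 11 and 2 without it. Of a list of 23 blood cell markers, 15 were tested. For doxycycline 0 were called higher and 3 lower in the shAKAP2 line (ITGB2, LAPTM5 and CSF1R), and 6 higher and 0 lower in the shScramble line, among them CD53, ITGB2 and LAPTM5. The interaction was negative past the threshold in 9 of the 15. Between the lines without doxycycline, 9 were higher and 1 lower in shAKAP2 than in shScramble cells. The share of the 15 called for doxycycline in the shAKAP2 line was below the 28.3% of all tested genes. For doxycycline in the shScramble line it was above the 1.08% of all tested genes. For the interaction and between the lines without doxycycline it was above the 18.0% of all tested genes called in each. CD68, a lysosomal protein of macrophages, averaged between 2.47 and 2.98 CPM in the 4 groups, and LYZ, which encodes lysozyme, between 0.359 and 0.567 CPM. CD14, the monocyte co-receptor for endotoxin, ran the other way, with 1.15 CPM in shAKAP2 cells with doxycycline, 1.6 in shAKAP2 cells without it, 6.32 in shScramble cells with it and 4.35 in shScramble cells without it. The list's summed level ran between 55.9 and 75.8 CPM in shAKAP2 libraries with doxycycline, 81.5 and 96.9 without it, 145 and 199 in shScramble libraries with it and 91.7 and 110 without it, of which LAPTM5 made up most. Without LAPTM5 it ran between 14.5 and 22.5 CPM in shAKAP2 libraries with doxycycline and 20.9 and 31.2 without it. In the shScramble libraries it then ran between 33.8 and 35.5 CPM with doxycycline and 16.7 and 24.7 without it. The shAKAP2 cells with doxycycline and the shScramble cells without it overlapped in this sum. Their PTPRC counts overlapped too, while their CD53 counts and their CXCL9 and CXCL10 levels did not. CD14, which is part of the sum, was higher in those shScramble cells. The T cell gene CD3E, the B cell gene MS4A1, the myeloid granule gene MPO and the red cell gene HBB had at most 1 count in any library. Of the list's other lymphocyte genes, CD3D reached 10 counts in a shScramble library without doxycycline. CD79A reached 15 counts in a shAKAP2 library without it. Whether these transcripts come from the same cells as the chemokines was not tested. Reads of other cells in a culture, or of other libraries of a sequencing run, cannot be told apart from a library's own reads in these counts, which also holds for the low counts of CXCL9 and CCL5, and in such bulk RNA fewer cells of a type and less RNA per cell cannot be told apart.

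Of 7 tested fibroblast markers 3 were lower with doxycycline in the shAKAP2 line, or 42.9%, against 28.3% of all tested genes called. They were COL1A2 (log2 -1.09), COL3A1 (log2 -3.96) and DCN, which averaged 0.00915 CPM with doxycycline and 0.813 CPM without it. The summed level of the fibroblast list was 20.7 ± 0.925 CPM in shAKAP2 cells with doxycycline, 29 ± 5.35 without it, 57.9 ± 9.9 in shScramble cells with it and 33.3 ± 10.2 without it. Of 7 endothelial markers, 2 were tested, and both were lower in shAKAP2 than in shScramble cells with doxycycline, where 40.2% of all tested genes were called. The part of such cells in the chemokine values was not tested.

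**Figure D4:**
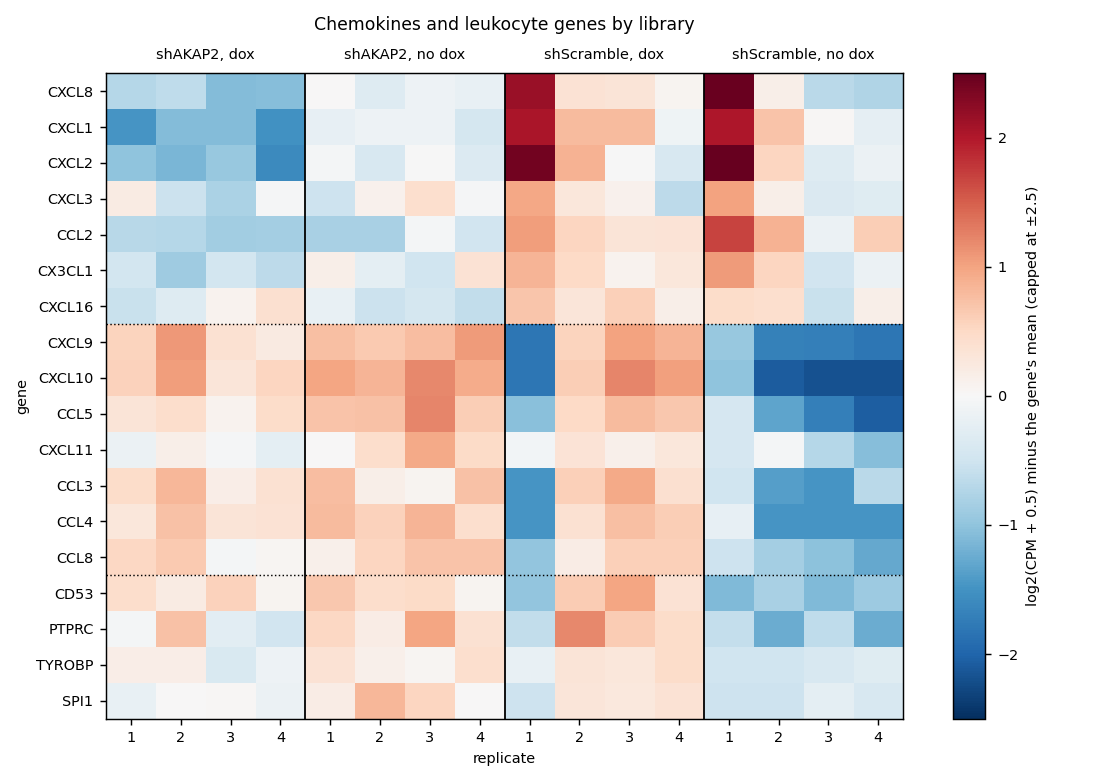
Log2(CPM + 0.5) of chemokine and leukocyte genes in each library, minus the gene's mean over the 16 libraries, capped at 2.5 in either direction. The upper block holds members that were high in the shScramble replicate 1 libraries and the middle block CXCL9, CXCL10, CCL5 and other chemokines. The lower block holds only a part of the list of 23 blood cell markers. CD14, which ran the other way, and CD68 and LYZ, which varied little between the groups, are on that list and not shown. CXCL9, CXCL10, CD53 and PTPRC are low in shScramble cells without doxycycline and in shScramble replicate 1 with it.

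CCL2 was lower in the shAKAP2 line with and without doxycycline. It had 0.741, 0.733, 0.601 and 0.622 CPM in shAKAP2 cells with doxycycline and 3.66, 2.41, 2.03 and 2.05 CPM in shScramble cells with it. Without doxycycline it had 0.645, 0.653, 1.45 and 0.956 CPM in shAKAP2 cells and 6.04, 3.17, 1.31 and 2.6 CPM in shScramble cells. The groups did not overlap with doxycycline, and without it they overlapped at the third shScramble and the third shAKAP2 library. The log2 difference was -1.90 with doxycycline (SE 0.393, adjusted p = 0.000625) and -1.83 without it (SE 0.376, adjusted p = 0.00249), and both held in every alternative run. Doxycycline itself changed CCL2 by -0.45 in the shAKAP2 line (adjusted p = 0.453) and -0.38 in the shScramble line (adjusted p = 0.836), neither past the threshold, with an interaction of -0.07 (SE 0.527).

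CX3CL1, the fractalkine gene, had 6.42, 4.66, 6.39 and 5.53 CPM in shAKAP2 cells with doxycycline, 10, 7.57, 6.24 and 11.8 CPM in shAKAP2 cells without it, 16.6, 12.9, 9.66 and 11.1 CPM in shScramble cells with it and 19.4, 13.4, 6.32 and 8.16 CPM in shScramble cells without it. All shAKAP2 libraries with doxycycline lay below all shScramble libraries with it (log2 -1.13, SE 0.298, adjusted p = 0.00611), and that call held in every alternative run. Within the shAKAP2 line the groups overlapped at 1 library, with a log2 fold change of -0.64 for doxycycline (SE 0.299, adjusted p = 0.127). CXCL16 was the member with a positive log2 fold change for doxycycline in the shAKAP2 line, 0.55 (SE 0.333, adjusted p = 0.235). Its levels were 0.865 to 2.16 CPM there with doxycycline and 0.819 to 1.26 CPM without it, and 1.72 to 2.77 CPM with and 0.863 to 2.25 CPM without it in the shScramble line. It passed in none of the 5 comparisons, and 85 of its exonic bases, 3.04%, overlap MED11 on the other strand, whose reads cannot be told apart if counting ignored strand. Of the proteins that release CX3CL1 and CXCL16 from the membrane, ADAM17 was higher with doxycycline in the shAKAP2 line, at 87.6 ± 1.7 CPM with it and 55.2 ± 4.1 without (log2 0.66, adjusted p = 0.000329). ADAM10 was lower, at 293 ± 10.2 CPM with it and 378 ± 28.0 without (log2 -0.37, adjusted p = 0.00293). RHBDF1, which encodes the iRhom1 partner of ADAM17, was lower too (log2 -0.87, adjusted p = 0.000299), and of the 5 genes tested in this list none was called for doxycycline in the shScramble line (edgeR, smallest adjusted p 0.55, 0 of 5 at an unadjusted p under 0.05).

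Of 36 other chemokine genes, 8 were tested, and none was called for doxycycline in either line (smallest adjusted p 0.0678 for CXCL11 in shAKAP2 and 0.0676 for CCL8 in shScramble cells; 1 and 5 genes at an unadjusted p under 0.05). Of all tested genes 28.3% were called in the shAKAP2 line and 1.08% in the shScramble line. CXCL11, the third CXCR3 ligand, averaged 2.21 ± 0.33 CPM in shAKAP2 cells with doxycycline, 3.5 ± 1.06 without it, 2.69 ± 0.397 in shScramble cells with it and 1.47 ± 0.587 without it. Its range between groups was narrower than that of CXCL9 and CXCL10, and its interaction term was -1.54 (SE 0.38, adjusted p = 0.00733). CCL8, a monocyte attractant, also had a negative interaction (log2 -2.58, SE 0.765, adjusted p = 0.0232). Without doxycycline 5 were higher in shAKAP2 than in shScramble cells: CCL3, CCL4, CCL8, CCL20 and CXCL11, with log2 differences between 1.25 and 3.08. They were 62.5% of the 8 tested, against 18.0% of all tested genes called in either direction. CCL3 and CCL4 had no count in shScramble replicate 1 with doxycycline, where CXCL9 had none either. The ELR genes CXCL5 and CXCL6 were too low to test. CXCL6 had 0 counts in shAKAP2 cells with doxycycline, 40 in shAKAP2 cells without it, 36 in shScramble cells with it and 6 without it, each over 4 libraries.

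The receptors through which these ligands act on leukocytes were scarce. CXCR1 and CXCR2 had no count in any library, and CXCR3 had 6 counts in all 16 libraries together. Of 23 receptor genes 8 were tested, and 2 were called lower with doxycycline in the shAKAP2 line, or 25.0%, near the 28.3% of all tested genes. CXCR4, the CXCL12 receptor, fell to 0.968 ± 0.169 CPM with doxycycline, against 3.57 ± 0.7 CPM without it (log2 -1.89, SE 0.191, adjusted p = 2.3e-07), and stood at 11.7 ± 1.45 and 13.4 ± 1.91 CPM in shScramble cells with and without doxycycline. CCRL2, an atypical receptor that binds chemerin, fell to 33.0 ± 3.85 CPM with doxycycline, against 58.6 ± 4.0 CPM without it (log2 -0.83, SE 0.152, adjusted p = 0.000479). Both had a negative interaction (adjusted p = 5.02e-05 for CXCR4 and 0.0102 for CCRL2). With doxycycline 5 of the 8 receptors were lower in shAKAP2 than in shScramble cells, or 62.5%, against 40.2% of all tested genes called in either direction.

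NF-kB targets and components were mixed in the shAKAP2 line: of 30 genes, all tested, 3 were higher and 7 lower with doxycycline, or 33.3% against 28.3% of all tested genes, with a median log2 fold change of -0.32 against 0.002 over all genes. IER3, an immediate early gene, was lower (log2 -0.64, adjusted p = 1.39e-05), while NFKBIE, an NF-kB inhibitor (log2 0.41, adjusted p = 0.0031), and the cytokine LIF (log2 0.34, adjusted p = 0.00628) were higher. In the shScramble line 1 was called, or 3.33%, against 1.08% of all tested genes. It was TNF, which was higher with doxycycline (log2 2.25, adjusted p = 0.0177) and averaged 0.704 ± 0.245 CPM with it and 0.14 ± 0.0932 without. In shAKAP2 against shScramble cells with doxycycline 2 were higher and 14 lower, or 53.3%, against 40.2% of all tested genes. The list's summed level was 1556 and 1793 CPM in the shScramble replicate 1 libraries with and without doxycycline, and 849 to 1197 CPM in the other 14, so the replicate 1 libraries were the highest for this list as for the ELR genes.

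Of 50 interferon-response genes, all tested, 2 were higher and 10 lower with doxycycline in the shAKAP2 line, or 24%, a share below the 28.3% of all tested genes. In the shScramble line 5 were higher and 0 lower, a share above the 1.08% of all tested genes. DDX58, the RIG-I sensor gene, was lower in the shAKAP2 line (log2 -0.63, adjusted p = 9.75e-07), as were DDX60 (log2 -0.69, adjusted p = 1.04e-06) and the transcription factor gene IRF1 (log2 -0.85, adjusted p = 3.2e-06). DDX60 was higher with doxycycline in the shScramble line (log2 0.80, adjusted p = 2.49e-06), as were IFIT3 (log2 0.41, adjusted p = 0.00494) and GBP5, a guanylate-binding protein (log2 2.32, adjusted p = 0.00966). GBP5 averaged 3.1 ± 0.765 CPM in shAKAP2 cells with doxycycline, 3.21 ± 0.413 without it, 3.88 ± 2.16 in shScramble cells with it and 0.757 ± 0.411 without it. The interaction was negative past the threshold in 17 of the 50 and positive in 0, or 34.0%, against 18.0% of all tested genes called. Its median was -0.45 against 0.003 over all genes. The list's summed level was 2852 CPM in shScramble replicate 1 with doxycycline, the highest of the 16 libraries, whereas CXCL9 and CXCL10 were low there. With doxycycline 5 of the 50 were higher and 29 lower in shAKAP2 than in shScramble cells, or 68.0%, against 40.2% of all tested genes. Without doxycycline 8 of the 50 were higher and 8 lower in shAKAP2 than in shScramble cells, or 32.0%, against 18.0% of all tested genes. CXCL9 and CXCL10 were both higher in that comparison.

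Proteins that bind AU-rich mRNAs were examined because of the TATTTAT words in the ELR genes. The list also holds PABPC1, which is named for binding poly(A) and not AU-rich words. Of 9 genes tested, PABPC1 included, 3 were higher and 2 lower with doxycycline in the shAKAP2 line, or 55.6%, where 28.3% of all tested genes were called. PABPC1, the cytoplasmic poly(A)-binding protein, averaged 1555 ± 68.5 CPM with doxycycline and 1134 ± 61.8 without it (log2 0.46, adjusted p = 4.26e-06). ZFP36L1, which promotes decay of such mRNAs, averaged 172 ± 11.0 CPM with doxycycline and 136 ± 10 without it (log2 0.34, adjusted p = 0.00244), and HNRNPD was higher as well (log2 0.27, adjusted p = 0.031). The 2 lower genes were ZFP36L2 (log2 -0.22, adjusted p = 0.0385) and TIAL1 (log2 -0.18, adjusted p = 0.0474). ZFP36 had a log2 fold change of -0.27 and was not called (adjusted p = 0.365). Whether any of these genes acts on the chemokine mRNAs was not tested. None was called for doxycycline in the shScramble line, where 1.08% of all tested genes were called (smallest adjusted p 0.436, and 1 of 9 at an unadjusted p under 0.05).

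The genes most like CXCL8 across the 16 libraries, by the root mean square difference of centred log2(CPM + 0.5), were CFB (0.32), C3 (0.343), GBP2 (0.385), CPE (0.388) and TCP11L2 (0.391), where CXCL8 itself varied by 0.981. CFB and C3 encode complement proteins. Among the members CXCL2 was nearest, at 0.351, then CXCL1 at 0.419, while CXCL10 stood at 1.82. Most like CXCL10 were CCL3L1 (0.267), CCL4L2 (0.377), PLEK (0.408), CCL4 (0.453) and CHI3L1 (0.462), where CXCL10 varied by 1.29. CCL3L1 and CCL4L2 are near-identical copies of CCL3 and CCL4, so their counts are uncertain, and PLEK encodes the leukocyte and platelet protein pleckstrin. Among the members CXCL9 was nearest to CXCL10, at 0.248, then CCL5 at 0.412. The 16 libraries share their groups, so these likenesses are a description, and those of CXCL8 rest on the 2 shScramble replicate 1 libraries. Without that pair none of its 5 genes was among its 5 nearest, which GBP4 (0.143), ST8SIA1 (0.181) and APOL1 (0.218) led where CXCL8 itself varied by 0.472, and CX3CL1 at 0.304 was its nearest member. CCL3L1 (0.192) and CXCL9 (0.264) stayed nearest to CXCL10, where it varied by 1.25.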

How the data were processed

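The values deposited by the authors are raw counts of reads for 57500 genes in 16 libraries. STAR 2.5.2b, featureCounts and Subread 1.5.2 with GRCh38 were used per the submitters' processing notes, while the sources used here give neither the annotation release nor the use of strand. The 10 members and all gene lists were chosen with earlier results of these data known. Of the genes, 26937 had no count, and filterByExpr kept 15566. Libraries were scaled by TMM, and edgeR 4.0.16 (R 4.3.3) fitted a robust quasi-likelihood model with a mean per group to all 16 libraries, with 12 residual degrees of freedom. P-values were adjusted over the 15566 genes by Benjamini-Hochberg, the threshold was 0.05, and every adjusted p is from that test unless another tool is named. SE is the log2 fold change divided by the square root of F. CPM used the scaled library sizes, RPKM divided them by the exonic length in GENCODE 29, and a pseudocount of 0.5 CPM was added before logs of single libraries. Alternatives were DESeq2 1.42.0 size factors and its Wald test, limma-voom (limma 3.58.1), no filter on low counts, a replicate block, the 2 groups compared alone, leaving out each library, and leaving out both shScramble replicate 1 libraries. The code was tested on simulated data. Total counts of at least 24482997 a library set the precision, and 1 count is worth under 0.05 CPM. Named genes are the members, AKAP2, up to 3 called genes a list with the smallest p for doxycycline in each line, and the 5 genes most like CXCL8 and CXCL10. CXCL5, CXCL6, CXCL11, CCL3, CCL4, CCL8, CCL20, CXCR1, CXCR2, CXCR3, PTPRC, CD14, CD68, LYZ, CD3D, CD79A, KRT19, EPCAM, GATA3, ZFP36, ZFP36L2, TIAL1, the genes nearest to CXCL8 and CXCL10 without the shScramble replicate 1 libraries and the marker genes at or near 0 were named after their values were seen.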

Additional observations from a re-analysis of the deposited data

Results flagged for a closer look

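The highest library of a group of 4 lay far from the other 3 in 5 cases of the shScramble line, each of them replicate 1: CXCL8 with doxycycline at 89.8 CPM, and without doxycycline CXCL2 at 14.1, CXCL8 at 111, CXCL9 at 0.403 and CXCL10 at 2.25 CPM. In the shAKAP2 line replicate 3 without doxycycline stood apart for CCL5, at 4.34 CPM. These are 6 of 40 combinations of a member and a group, by Dixon's ratio at its 95% critical value, a rule that chance meets in about 1 of 20. The doxycycline effect differed between the lines by the interaction term for CXCL9 (-4.08), CXCL10 (-3.15) and CCL5 (-3.05), on the log2 scale as shAKAP2 minus shScramble.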

How the results depend on the processing

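Over all alternatives but the left-out libraries of the 2-group fit, 720 of 815 values of single members kept their direction and side of the threshold, 18 lost and 37 gained a call, and 40 changed sign. The DESeq2 test gave CXCL8 no adjusted p in the 5 comparisons, so these values are not counted and its counts of members cover the other 9. For doxycycline in the shAKAP2 line, 0 members were called in the fit to 16 libraries, 1 by DESeq2, 6 with the 2 groups alone and 4 without both shScramble replicate 1 libraries; leaving out 1 library of the 2-group fit gave 4, 5 or 6. For doxycycline in the shScramble line, 1 member and 168 genes were called; the members numbered 0 with no filter, under limma-voom and with the 2 groups alone, 3 by DESeq2 and without both replicate 1 libraries, and 0 to 3 with any library left out. The genes numbered 300 by DESeq2, 37 with the 2 groups alone, 1002 without both replicate 1 libraries and 101 to 409 with any library left out. For the interaction, 3 members and 2802 genes were called; the members numbered 1 with no filter and under limma-voom, 7 without both replicate 1 libraries and 3 to 7 with any library left out, and the genes 4823 without both. Between the lines without doxycycline 2795 genes were called, and 1669 to 2592 with any library left out. The RPKM order, the ELR share and the likenesses without the replicate 1 libraries were added after seeing the data. The causes of these differences were not tested.

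Uncalled values changed sign. Under limma-voom CXCL3 had -0.14 for doxycycline in the shScramble line and CCL5 0.15 between the lines with doxycycline. Without both replicate 1 libraries CXCL2 had 0.22 for doxycycline in the shScramble line, CXCL9 -0.27 and CXCL10 -0.35 between the lines with doxycycline, and CXCL3 0.32 and CXCL8 0.22 without it. With 1 library left out, the doxycycline effect in the shScramble line ran between -0.445 and 0.948 for CXCL1, -1.075 and 1.239 for CXCL2, -0.455 and 0.696 for CXCL3, -0.738 and 1.395 for CXCL8, -0.643 and 0.099 for CCL2 and -0.124 and 0.437 for CX3CL1. The interaction ran between -0.059 and 0.427 for CXCL16 and -0.555 and 0.212 for CCL2. The difference of the lines with doxycycline ran between -0.267 and 0.424 for CXCL9, -0.348 and 0.287 for CXCL10 and -0.395 and 0.13 for CCL5, and without it between -0.594 and 0.319 for CXCL3 and -1.456 and 0.224 for CXCL8.

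Same-numbered libraries of the 2 shScramble groups deviated together with correlations of 0.537, 0.043, 0.305 and 0.117, those of the shAKAP2 groups with 0.005 to 0.083, and 5 of 8 libraries correlated best with their own number, a hint of pairing from the data. Since 1 shScramble pair and all 4 shAKAP2 pairs lay at or under 0.083, the numbers were not taken to pair the samples. With a replicate block, 2 members were called for doxycycline in the shAKAP2 line and 0 in the shScramble line, where CXCL2 had a log2 value of 0.036. The interaction kept 3 called members, with CXCL1 gained (adjusted p = 0.0291) and CXCL9 lost (adjusted p = 0.0525), and CXCL8 was gained between the lines with doxycycline (adjusted p = 0.0258), making 5. Members under 1 CPM, such as CXCL3 and CCL2 in the shAKAP2 line, rest on 6 to 38 counts a library, which limits what their tests can show. The same limit holds in shAKAP2 cells with doxycycline for CXCL1, at 14 to 25 counts a library, and CXCL2, at 9 to 21.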
